A study of Mus musculus with 123 samples.

Results

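The 10 genes of the DLK-JNK and axon degeneration pathway were followed in mouse dorsal root ganglion (DRG) neurons after sciatic nerve transection (SNT). They are Map3k12, Map3k13, Map2k4, Map2k7, Mapk8, Mapk9, Mapk10, Mapk8ip3, Sarm1 and Nmnat2. They were picked by symbol, not by their values, and all 10 were found among 24134 genes. Each was compared between the ganglia of the cut nerve (SNT side) and the contralateral ganglia of the same animals (control side).

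At day 3, 41 SNT-side and 18 control-side neurons were kept by the authors, of 48 and 22 sequenced, from female F1 mice of CAST/Eij males and C57BL/6 females. At day 7, 33 SNT-side and 14 control-side neurons came from C57BL/6 mice, with 16 female and 17 male cells on the SNT side and 7 of each on the control side. All mice were 2 months old and were cut on the right side. A further 6 libraries came from neuron pools of the day-3 F1 cross, 3 per side. The neurons of each side were lysed together and split in 3, so the p-values of the pools measure only the spread between parts of 1 pool per side. For the pools, the column names and the identifier line of the table assign the sides in opposite ways, and the source label calls all 6 intact. The column names were used, and the other reading would turn the sign of every pool result. Under the names used, Atf3, a transcription factor induced by axon injury, was at 1549 ± 126 CPM (CPM, the counts of a gene for every 1000000 counts in its library; SD, n = 3) in the SNT pool and 12.7 ± 6.71 CPM in the control pool. Strain, sex, read length (50 and 75 bp) and day change together in the cells, and their parts cannot be told apart, so the days are set side by side and not compared. Total counts were 563462 to 839135 in the control and 1148849 to 2003817 in the SNT pool libraries, 277390 to 1849130 in the kept day-3 cells and 261351 to 1018545 in the day-7 cells.

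DLK (Map3k12) and LZK (Map3k13) are kinases at the top of a stress cascade that is switched on in injured axons. They phosphorylate MKK4 (Map2k4) and MKK7 (Map2k7), which phosphorylate the Jun N-terminal kinases JNK1, JNK2 and JNK3 (Mapk8, Mapk9 and Mapk10). JNKs then act on Jun and other nuclear factors, and the scaffold JIP3 (Mapk8ip3) ties JNK and DLK signalling to axonal motors. Sarm1 cleaves NAD and drives the degeneration of cut axons, and Nmnat2, a labile enzyme that makes NAD in axons, keeps it in check. Much of the control of this pathway acts on the proteins, which these RNA data do not measure.

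The pool values are given first, since they have replicate libraries. The call rule was an adjusted p under 0.05 (Benjamini-Hochberg) in edgeR's quasi-likelihood test over 13509 genes. Of the 10 genes, 2 were called, Sarm1 and Mapk8ip3, both higher on the SNT side. The background was 24.8% of all genes called, 14% higher and 10.8% lower, so a share of 2 in 10 is near the background. Past a 2-fold change as well was 1 of the 10 (Sarm1), against 15.9% of all genes (8.83% higher). The median log2 change of the 10 was -0.04, and that of all genes tested was 0.02. Higher genes made up 56.5% of those called with TMM factors and 42.9% with library totals alone, which moved the median of all genes to -0.14. The same 2 genes were called higher with either scaling.

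The upstream sequences of the called genes are shown because a change in RNA level is measured here for each. That of Mapk10 is added for a motif that it holds. Each is the 250 bases before the RefSeq start site on the sense strand, in build GRCm38.p6. The files hold no coordinates and their build is given as mm9, so positions come from the reference alone.
Sarm1, chr11:78497755-78498004, minus strand: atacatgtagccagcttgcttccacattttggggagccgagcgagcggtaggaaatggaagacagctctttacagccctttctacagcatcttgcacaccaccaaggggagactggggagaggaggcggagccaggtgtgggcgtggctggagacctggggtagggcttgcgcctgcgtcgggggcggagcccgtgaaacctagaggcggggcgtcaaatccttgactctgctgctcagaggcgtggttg
Mapk8ip3, chr17:24936978-24937227, minus strand: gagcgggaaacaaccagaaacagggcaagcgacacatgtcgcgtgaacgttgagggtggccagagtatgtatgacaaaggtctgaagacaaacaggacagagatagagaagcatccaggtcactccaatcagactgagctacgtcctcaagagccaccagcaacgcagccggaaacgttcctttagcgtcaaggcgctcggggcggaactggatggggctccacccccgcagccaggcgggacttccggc
Mapk10, chr5:103211335-103211584, minus strand: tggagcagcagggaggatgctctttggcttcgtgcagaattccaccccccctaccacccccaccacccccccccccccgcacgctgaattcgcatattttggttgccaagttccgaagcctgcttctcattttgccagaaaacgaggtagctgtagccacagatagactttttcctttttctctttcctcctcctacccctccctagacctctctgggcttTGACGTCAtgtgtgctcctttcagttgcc
Capitals mark the letters TGACGTCA, the cyclic AMP response element that ATF-family factors and Jun can bind. It was searched on both strands, on which it reads the same, and begins 29 bases before the Mapk10 start. Over windows of 250 bases before to 50 after the start, 1.79% of 32817 RefSeq promoters held it, and of the members' windows this one alone did. The AP-1 motif TGANTCA was in 7.81% of all windows and, among the members, in a second Map2k7 start site only, 92 bases before it. Neither the Sarm1 nor the Mapk8ip3 window held either motif. These matches describe letters, not binding.

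The kinases at the top of the cascade showed no called difference. Map3k12 (GENCODE M21, GRCm38, chr15:102497646-102517064, minus strand) had 49.3, 39.6 and 52.1 CPM in the control libraries and 46.2, 38.7 and 58.6 CPM in the SNT libraries, with overlap (log2 change 0.053, SE 0.26, edgeR adjusted p = 0.915; -0.11 with library totals alone). Map3k13 (chr16:21794346-21933439, plus strand) had 15.6, 11.3 and 10.1 CPM in control and 8.74, 14.8 and 10.1 CPM in SNT libraries, also with overlap (log2 change -0.17, SE 0.49). Map3k12 shares 1573 exon bases, 28.1% of its own, with Pcbp2 on the opposite strand. Smart-seq2 libraries carry no strand, so reads there cannot be assigned to one of the pair. Pcbp2 had a log2 change of -0.14 (adjusted p = 0.77, edgeR).

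Map2k4, the MKK4 gene (chr11:65688243-65788297, minus strand), had 144, 147 and 134 CPM in the control libraries and 122, 91.2 and 113 CPM in the SNT libraries. Its SNT libraries all lay below the control libraries, with a log2 change of -0.38 (SE 0.18), but it was not called (edgeR adjusted p = 0.124). Scaled by library totals alone it was (log2 change -0.54, edgeR adjusted p = 0.0233). Map2k7, which encodes the parallel kinase MKK7 (chr8:4238740-4247897, plus strand), had 59.7, 53.2 and 50.4 CPM in control and 44.95, 68.2 and 36.2 CPM in SNT libraries, and the sides overlapped (log2 change -0.16, SE 0.26).

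The JNK genes were not called, though Mapk9 had an unadjusted p of 0.0292 in edgeR. DESeq2 and limma-trend also called 2 of the 10 members. Mapk9 (JNK2, chr11:49846751-49886421, plus strand) had 197, 146 and 247 CPM in the control libraries and 255, 227 and 275 CPM in the SNT libraries, with overlap through control library 3 (log2 change 0.38, SE 0.17, edgeR adjusted p = 0.0952). Without that library the change was 0.56 and was called (adjusted p = 0.0255, edgeR). Mapk10 (chr5:102907948-103211334, minus strand) encodes JNK3, the neuronal form, and had 246, 343 and 338 CPM in control and 288, 304 and 302 CPM in SNT libraries. The SNT libraries of Mapk10 lay inside the control range (log2 change -0.051, SE 0.15). Mapk8 (JNK1, chr14:33377898-33447158, minus strand) had 32.4, 28.3 and 26.9 CPM in control and 31.8, 30.4 and 22.4 CPM in SNT libraries, and its sides overlapped as well (log2 change -0.065, SE 0.32).

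Mapk8ip3 (chr17:24892153-24936977, minus strand) encodes the scaffold JIP3. Its control libraries were at 250, 303 and 277 CPM and its SNT libraries at 453, 507 and 466.4 CPM. The SNT libraries lay above all control libraries, at a mean of 476 ± 27.9 against 277 ± 26.5 CPM (SD, n = 3). The log2 change was 0.78 (SE 0.14, edgeR adjusted p = 2.94e-05, rank 842).

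Sarm1 had the largest pool change of the 10 genes. Sarm1 (chr11:78472330-78497754, minus strand) had 85.6, 109 and 108 CPM (scaled by TMM factors) in the control libraries and 269, 220 and 260 CPM in the SNT libraries. Every SNT library lay above every control library. The means were 249.5 ± 25.7 and 101 ± 13 CPM (SD, n = 3), a log2 change of 1.32 (SE 0.17, edgeR adjusted p = 8.78e-08), and Sarm1 ranked 396 of 13509 genes by p. The sides did not overlap for 3 of the 10 genes, Map2k4, Mapk8ip3 and Sarm1, against 37.7% of all genes (21.1% with the SNT libraries above and 16.6% below).

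Nmnat2 (chr1:152954993-153119261, plus strand) had 144, 123 and 119 CPM in the control libraries and 110, 126 and 144 CPM in the SNT libraries. The sides of Nmnat2 overlapped (log2 change -0.023, SE 0.18, edgeR adjusted p = 0.946). Within a library, where scaling has no part, the log2 ratio of Nmnat2 to Sarm1 was 0.75, 0.19 and 0.15 in the control libraries and -1.29, -0.81 and -0.85 in the SNT libraries. These ratios are of counts, not scaled for transcript length, so they were compared between sides and not read as the order of the genes. The ratio was higher in every control library than in any SNT library. The difference of -1.34 had an exact permutation p of 0.1 (two-sided), the smallest that 3 against 3 can give. The log2 ratio of Map3k12 to Map3k13 differed by 0.18 (exact permutation p = 0.8).

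**Figure D1:**
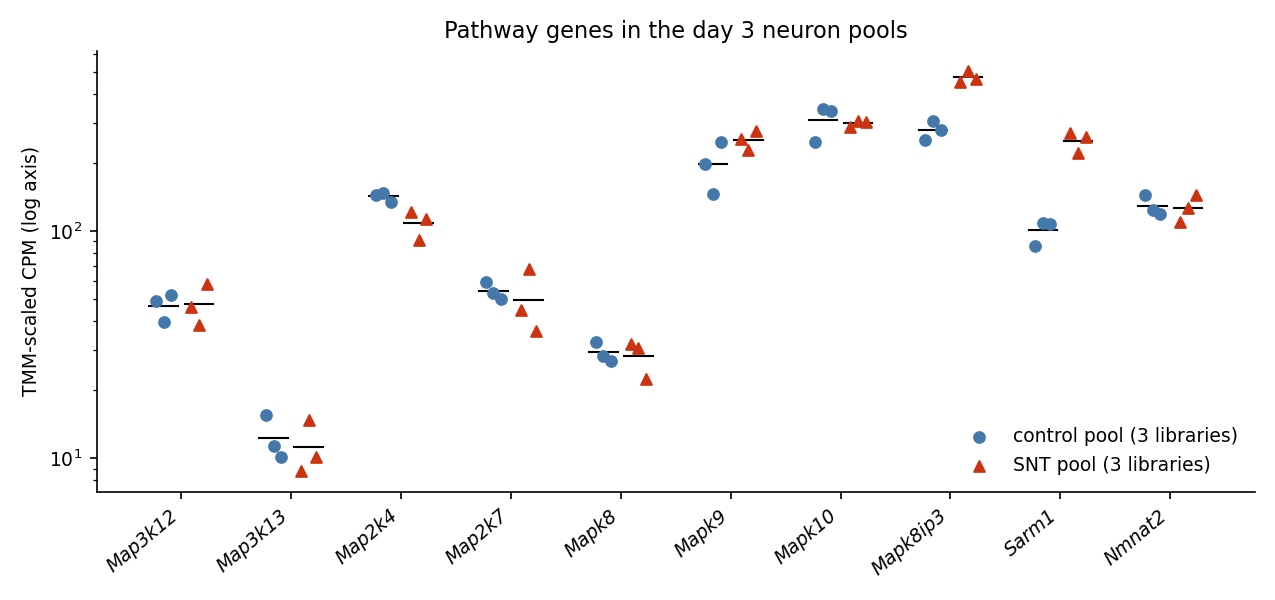
TMM-scaled CPM on a log axis of the 10 genes in the 3 control (circles) and 3 SNT (triangles) pool libraries, with black bars at the means. Sarm1 and Mapk8ip3 are the genes whose SNT libraries all lie above, and Map2k4 the gene whose SNT libraries all lie below the control libraries.

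Levels of different genes were set side by side per kilobase of the longest RefSeq-matched coding transcript. In the control pool Mapk8ip3 was highest at 50.0 CPM per kb, followed by Mapk10 (42.9), Mapk9 (42.01), Map2k4 (38.4), Nmnat2 (27.9), Sarm1 (20.7), Map2k7 (15.4), Map3k12 (9.06), Mapk8 (5.07) and Map3k13 (1.84). From Mapk8ip3 to Map2k4 the library ranges of neighbours overlapped, and from Map2k4 downward they did not. In the SNT pool Sarm1 stood at 51.2 CPM per kb, above Nmnat2 at 27.4.

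Markers of other cell types moved with side in the pools. The summed level of 10 glial markers, none of them at 0, ranged from 12640 to 15310 CPM in control and from 6156 to 6951 CPM in SNT libraries. The 6 markers of nonpeptidergic (NP) nociceptors summed to 2977 to 3098 CPM in control and 553 to 634 CPM in SNT libraries. Markers of peptidergic (PEP) nociceptors summed to 1935 to 2361 CPM and 1011 to 1164 CPM, those of C-fiber low-threshold mechanoreceptors (C-LTMR) to 448 to 585 CPM and 71.8 to 129 CPM, and those of large myelinated (LM) neurons to 1311 to 1521 CPM and 1523 to 1605 CPM. The 8 pan-neuronal markers did not move together, since 2 were called higher and 3 lower (median log2 change -0.38). Their sum, 8516 to 9816 CPM in control and 14100 to 15900 CPM in SNT libraries, was led by Tubb3, which rose from 2937 ± 367 to 9681 ± 1017 CPM (SD, n = 3; named after its values were seen). Immune markers summed to at most 4.77 CPM in control and 15.85 CPM in SNT libraries. The part of these shifts in the changes of Sarm1 and Mapk8ip3 was not tested. In a pool, fewer cells of a type and less RNA per cell cannot be told apart.

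The neighbours of the cascade were described by lists. Of 30 JNK pathway neighbours (upstream kinases, p38 kinases, scaffolds, DLK turnover genes and JNK phosphatases), 8 rose and 2 fell in the pools, beside 14% of all genes higher and 10.8% lower. The median log2 change was 0.21. Past 2-fold were 6 higher and 1 lower, beside 15.9% of all genes (8.83% higher). Tnik, a kinase of the MAP4K family, rose most, from 38.4 ± 2.03 to 209 ± 6.92 CPM (log2 change 2.44, SE 0.20, edgeR adjusted p = 7.56e-13). Its relative Map4k4 rose by 1.41, Dusp1, a phosphatase that inactivates JNK and p38, by 1.64, Mapk14, the p38 alpha kinase, by 1.19, Map3k7 (TAK1) by 1.17 and Mapk8ip1, the JIP1 scaffold, by 1.02 on the log2 scale. Map3k1 (MEKK1) fell by 1.51. In the day-3 cells Map3k7 had the opposite sign, at 14.3 CPM on the SNT and 22.99 CPM on the control side (log2 ratio -0.64). The log2 ratio of Mapk8ip1 was 0.45 in the day-3 and -0.10 in the day-7 cells. In the same order it was 0.88 and 0.23 for Dusp1, 0.40 and 0.66 for Mapk14 and -0.87 and -0.29 for Map3k1.

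Among 24 measured axon degeneration and NAD genes, 21 passed the filter on low values, of which 9 rose in the pools and 12 were not called, beside 14% of all genes higher. The median log2 change was 0.67, also with Qprt at its bound. Of the 9, 6 were past 2-fold, beside 8.83% of all genes. Stmn2 (SCG10), a microtubule regulator whose loss marks degenerating axons, rose from 2011 ± 114 to 5377 ± 102 CPM (log2 change 1.42, SE 0.10, edgeR adjusted p = 3.13e-14). Its relative Stmn4 rose by 5.09 and the death receptor gene Tnfrsf21 (DR6) by 1.38 on the log2 scale. The log2 ratio of Tnfrsf21 in the cells was 0.38 at day 3 and -0.11 at day 7. For Stmn2 it was 0.85 and 0.57. The genes for 2 enzymes of NAD metabolism rested on few counts. Cd38, an NAD hydrolase, had 28 counts in the SNT and 1 in the control libraries, a ratio of 12.4 (exact 95% interval 2.04 to 505). In the cells it was the other way, at 2.60 against 5.75 CPM at day 3 (log2 ratio -0.91) and with a log2 ratio of -0.99 at day 7, at levels under the limit of 10 CPM. Qprt, which makes an NAD precursor, had 24 and 0 counts, at least 3.53-fold higher against a floor of 3 counts over the control group.

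Of 14 JNK nuclear targets and AP-1 partners, 4 rose and 2 fell, beside 24.8% of all genes called in either direction. The median log2 change was 0.31, also with the genes without control counts at their bound. Atf3 rose by 6.86, Gadd45a, a stress-response gene, by 3.52 and Jun by 2.13 on the log2 scale, while Fos fell by 1.37. In the cells the log2 ratio of Fos was 0.041 at day 3 and -1.20 at day 7. Fos is among 6 early-response genes that tissue handling can induce. They summed to 152.5 to 200.2 CPM in control and 80.7 to 97.5 CPM in SNT pool libraries. In the day-3 cells their sum had medians of 23.3 CPM on the control and 52.0 CPM on the SNT side. The part of handling was not tested. Fosl2, an AP-1 partner, rose from 1.51 ± 2.61 to 17.3 ± 3.74 CPM (SD, n = 3). Of 10 motor subunits that bind JIP3 or carry axonal cargo, 5 rose and 4 fell, beside the same 24.8% of all genes. The median was 0.13, and past 2-fold there were 0, beside 15.9% of all genes.

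In the single cells no animal is named, so each side is 1 sample and no test was made. A log2 ratio of mean CPM + 1 was formed for genes whose side means averaged at least 10 CPM. Levels over cells are given as the lowest, the median and the highest. None of the 10 genes had a ratio past 2-fold at either day, against 10.5% of 9291 genes at day 3 (5.05% above and 5.44% below) and 6.41% of 9192 genes at day 7 (3.7% above and 2.71% below). At day 3, 4 of the 10 had a ratio above 0, as did 46% of all genes. At day 7 it was again 4 of 10, with 43.4% of all genes.

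Map3k12 had a lower mean on the SNT side in the cells of both days. At day 3 it was at 17.7, 60.5 and 143 CPM in control-side and 14.2, 50.0 and 112 CPM in SNT-side cells (log2 ratio -0.35). It was at 64.8, 88.4 and 138 CPM in control-side and 27.5, 57.5 and 110 CPM in SNT-side cells at day 7 (log2 ratio -0.58). There 18 of 33 cells of the SNT side were lower than any control cell, and the means were 58.7 against 98.5 CPM in female and 66.4 against 89.8 CPM in male cells. The 18 included cells with Atf3 at 0 (such as 1 with Map3k12 at 44.95 CPM) and cells with high Atf3 (such as 1 with Map3k12 at 27.5 CPM). These are single examples and do not give the share of either kind among the 18. The part of Atf3 level in the Map3k12 ratio was not tested. The overlap with Pcbp2 touches these values too.

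Map3k13 was near the detection limit. Its day-3 log2 ratio was -0.34 from means, while its median was higher on the SNT side (8.86 against 6.84 CPM). At day 3, 38 of 41 SNT-side and 17 of 18 control-side cells had a read of it, and 63.4% and 88.9% of cells after thinning to 250000 counts. Levels of 10 CPM or more were found in 46.3% of SNT-side (exact 95% interval 30.7 to 62.6) and 44.4% of control-side cells (21.5 to 69.2). At day 7 the shares were 60.6% (42.1 to 77.1) and 50.0% (23.04 to 77.0). These intervals cover the draw of cells within a side alone, not differences between animals.

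Map2k4 had the day-3 ratio farthest from 0 among the 10 genes. It was at 90.9, 181 and 379 CPM in control-side and 43.04, 110 and 262 CPM in SNT-side cells. Of 41 SNT-side cells, 11 were lower than any control cell and 6 lay above the control median. The means were 118 ± 50.0 and 185 ± 66.4 CPM (log2 ratio -0.65), in the direction of the pools. At day 7 it was at 118, 246 and 387 CPM in control-side and 94.2, 259 and 547 CPM in SNT-side cells, with wide overlap (log2 ratio 0.048).

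Map2k7 had a log2 ratio of -0.082 at day 3, with nearly equal medians of 43.2 and 42.8 CPM on the SNT and control sides. At day 7 it was at 22.98, 39.2 and 68.6 CPM in control-side and 12.5, 26.3 and 63.5 CPM in SNT-side cells, and 13 of 33 were lower than any control cell (log2 ratio -0.38).

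Mapk10 had a lower mean on the SNT side at both days. At day 3 it was at 118, 318 and 541 CPM in control-side and 53.8, 244 and 594 CPM in SNT-side cells (log2 ratio -0.45), with 9 of 41 SNT-side cells above the control median. At day 7 it was at 285, 360 and 438 CPM in control-side and 95.2, 276 and 437 CPM in SNT-side cells (log2 ratio -0.46), and 19 of 33 cells of the SNT side were lower than any control cell. The day-7 values within sex were 274 ± 93.4 against 385 ± 56.5 CPM in female and 261 ± 91.5 against 350 ± 54.2 CPM in male cells (SD; 16 and 7 female, 17 and 7 male cells). Of all JNK counts in a cell, not scaled for transcript length, Mapk10 took 48.6 ± 12.3% on the SNT side and 57.3 ± 12.9% on the control side at day 3, and 40.3 ± 8.28% and 49.2 ± 9.03% at day 7. In the pools of day 3 the log2 change of Mapk10 was -0.051. Across control-side day-3 cells Mapk10 had a Spearman correlation of -0.68 with the library total (n = 18 cells of 1 sample), while it was 0.10 on the SNT side of that day and -0.015 and -0.18 on the control and SNT sides of day 7. With Nefh, 1 of the LM markers, the correlation was 0.74 on the control and 0.48 on the SNT side at day 3. At day 7 it was -0.40 and 0.66. The parts of depth, neuron type and Atf3 level in the ratios of Mapk10 were not tested. Thinned to 250000 counts per cell, the ratio kept its sign at both days, but thinning does not remove a link between CPM and library total.

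Mapk8 lay above the control median in 32 of 33 day-7 SNT-side cells. Of those 33 cells, 21 had Atf3 at or below 13.9 CPM and 12 at or above 704 CPM. The part of Atf3 level in the Mapk8 ratio was not tested. At day 7 Mapk8 was at 18.3, 49.5 and 101 CPM in control-side and 35.6, 80.2 and 150 CPM in SNT-side cells, with 9 SNT-side cells above every control cell (log2 ratio 0.62). The means were 87.7 against 51.6 CPM in female and 82.0 against 58.0 CPM in male cells. At day 3 it was at 19.1, 38.1 and 80.4 CPM in control-side and 22.4, 38.05 and 114 CPM in SNT-side cells, with nearly equal medians (log2 ratio 0.086). Mapk9 was at 102, 204 and 380 CPM in control-side and 72.0, 209 and 419 CPM in SNT-side cells at day 3 (log2 ratio 0.026), and at 171, 351 and 438 CPM and 214, 286 and 491 CPM at day 7 (log2 ratio -0.17). Its sides overlapped at both days.

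Mapk8ip3 was at 244, 353 and 538 CPM in control-side and 256, 392 and 684 CPM in SNT-side cells at day 3, and at 378, 542 and 753 CPM and 393, 521 and 765 CPM at day 7. The sides overlapped at both days. It had a coefficient of variation over cells of 16.98% to 24.01% in the 4 groups of side and day. Its log2 ratio was 0.14 at day 3 and -0.002 at day 7, against a change of 0.78 in the pools.

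Sarm1 at day 3 was at 17.1, 136 and 256 CPM in control-side cells and 82.3, 188 and 322 CPM in SNT-side cells. The sides overlapped widely, though 31 of 41 SNT-side cells lay above the control median and 6 above every control cell. The means were 190 ± 61.9 (SD, n = 41) and 143 ± 58.1 CPM (n = 18), a log2 ratio of 0.41. That is 1.33-fold, against a log2 change of 1.32 in the pools of the same day. At day 7 the levels were 90.0, 116 and 363 CPM in control-side and 38.2, 102 and 202 CPM in SNT-side cells. There 11 of 33 cells of the SNT side were lower than any control cell and the log2 ratio was -0.36, or -0.18 from medians. The highest control cell, at 363 CPM, was a male cell. Within sex it was -0.21 in female and -0.49 in male cells.

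Nmnat2 at day 3 had 63.2, 164 and 317 CPM in control-side and 58.5, 102 and 241 CPM in SNT-side cells. Of 41 SNT-side cells, 9 lay above the control median (log2 ratio -0.37). The log2 ratio of Nmnat2 to Sarm1 in a cell had a median of -0.74 on the SNT side and -0.0019 on the control side. It was above 0 in 8 of 41 SNT-side and 9 of 18 control-side cells. At day 7 Nmnat2 had 55.0, 129 and 232 CPM in control-side and 44.8, 153 and 257 CPM in SNT-side cells, nearly the same range (log2 ratio 0.067). The median log2 ratio of Nmnat2 to Sarm1 was then 0.34 on the SNT side and 0.12 on the control side, and it was above 0 in 21 of 33 and 8 of 14 cells. In the pools and in the day-3 cells Sarm1 stood higher relative to Nmnat2 on the SNT side, and in the day-7 cells it did not.

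**Figure D2:**
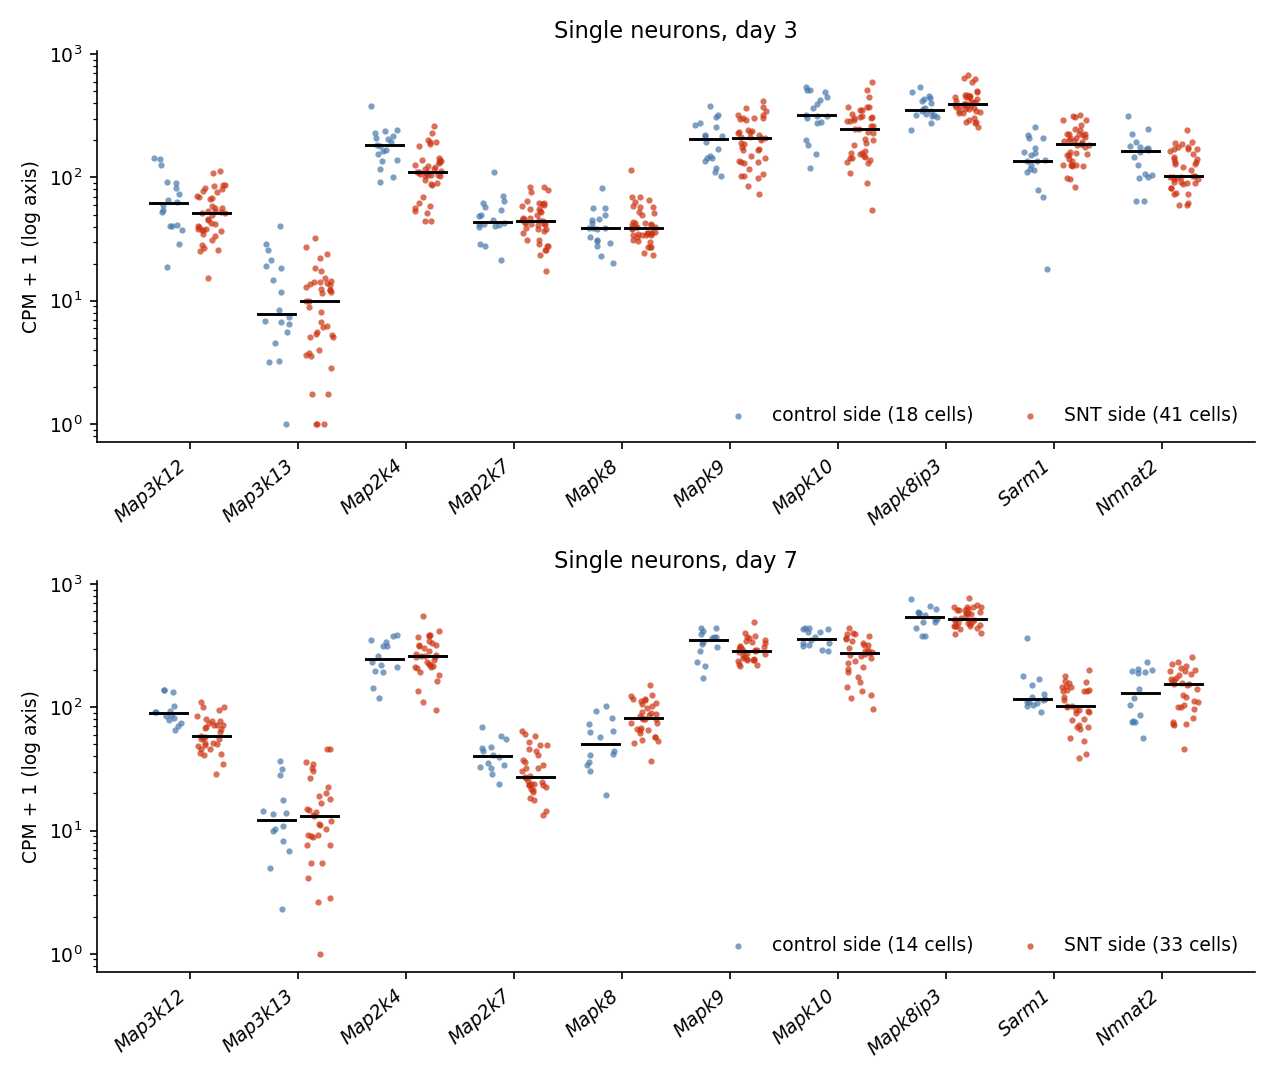
CPM + 1 on a log axis of the 10 genes in single neurons at day 3 (top) and day 7 (bottom), 1 point per cell, with black bars at the medians. The sides overlap for every gene, and at day 7, 18 and 19 of 33 SNT-side cells are lower than any control cell for Map3k12 and Mapk10.

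**Figure D3:**
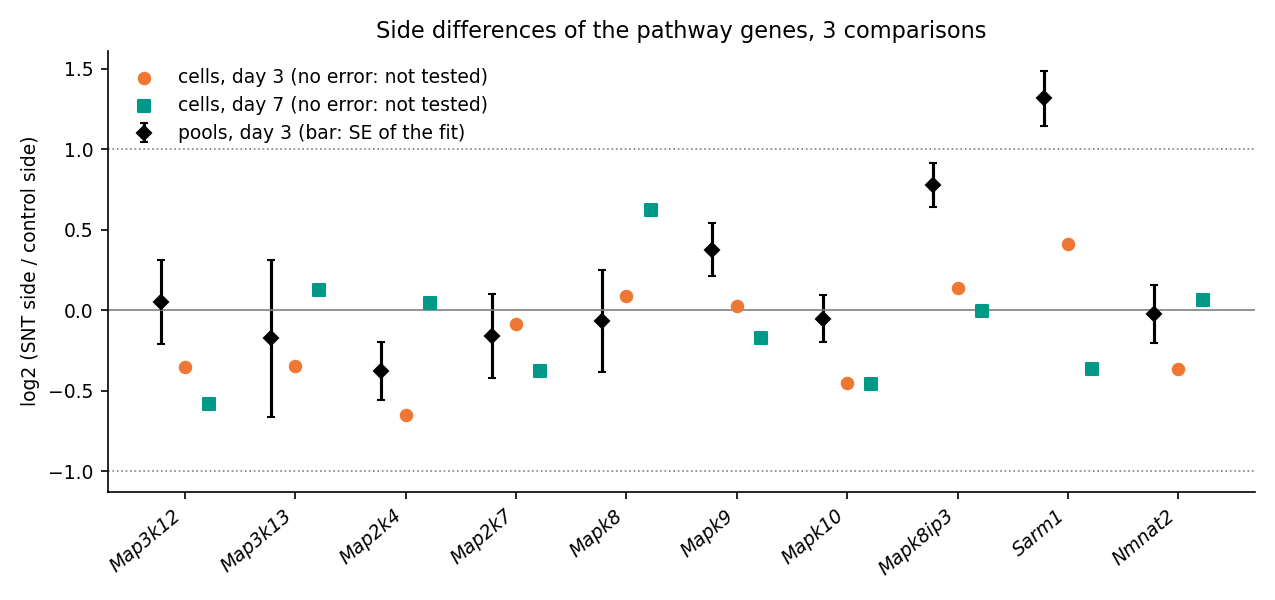
Log2 ratio of SNT to control side for the 10 genes in the day-3 pools (diamonds, bars are the SE), the day-3 cells (circles) and the day-7 cells (squares), with dotted lines at 2-fold. Sarm1 in the pools, at 1.32, is the value past 2-fold, while in the cells it is at 0.41 and -0.36.

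Pan-neuronal markers summed to 6730 to 18040 CPM over all kept cells, none of the 8 at 0 in any group. Glial marker sums in the cells had medians of 3813 CPM on the SNT and 3770 CPM on the control side at day 3, and 1499 and 5221 CPM at day 7. Taken singly, 0 of the 10 glial markers were past 2-fold at day 7 (median log2 ratio -0.28), beside 6.41% of all genes. Apoe, the highest of them, had day-7 means of 1954 CPM on the SNT and 3487 CPM on the control side. LM markers had medians of 359 and 274 CPM at day 3 and 3356 and 3869 CPM at day 7, and NP markers of 1233 and 1209 CPM and of 98.97 and 86.8 CPM. The NP sums hide that 4 of the 6 NP markers were lower past 2-fold at day 3 (median log2 ratio -1.45), beside 5.44% of all genes. The LM sums hide that 2 of the 6 LM markers were higher past 2-fold at day 3 and 3 at day 7. None of the LM markers was lower past 2-fold, and their median log2 ratios were 0.18 and 0.65. Of all genes, 5.05% were higher past 2-fold at day 3 and 3.7% at day 7. PEP markers had medians of 371.5 CPM on the SNT and 2863 CPM on the control side at day 3, with 4 of 5 lower past 2-fold, and of 272 and 598 CPM at day 7. All 3 C-LTMR markers that could be compared at day 3 were lower past 2-fold. Single SNT-side cells reached 3311 CPM of immune markers at day 3 and 4670 CPM of erythrocyte markers at day 7, where the highest control-side cells were at 65.2 and 33.1 CPM. The ranges of the sides overlapped in each of these sums, and the part of neuron type and of other cells in the cell ratios was not tested.

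Atf3 marks the cells in which the injury response is on. On the SNT side it fell into separate ranges. At day 3, 11 of 41 cells were at or below 23.04 CPM and 30 at or above 951 CPM. At day 7, 21 of 33 cells were at or below 13.9 CPM and 12 at or above 704 CPM, while the highest control cell was at 75.7 CPM at day 3 and 29 CPM at day 7. Because of the gap no correlation over all SNT-side cells is given. Within the high range at day 3 (30 cells), Spearman's rho with Atf3 was -0.47 for Map2k4, -0.39 for Mapk10, 0.49 for Map3k12, 0.18 for Sarm1 and -0.04 for Nmnat2. Within the high range at day 7 (12 cells) it was -0.44, -0.24, 0.32, 0.41 and 0.66 for the same genes. In the low ranges it was -0.05, -0.31, -0.18, -0.42 and -0.05 at day 3 (11 cells) and 0.52, 0.52, -0.02, -0.22 and 0.53 at day 7 (21 cells). The other members, in the order Map3k13, Map2k7, Mapk8, Mapk9 and Mapk8ip3, had -0.25, 0.07, -0.22, -0.34 and 0.06 in the high range at day 3. At day 7 their high-range values were -0.28, -0.50, 0.10, 0.24 and 0.36. Their low-range values were -0.11, 0.37, 0.06, -0.51 and -0.03 at day 3 and 0.50, 0.07, 0.23, -0.02 and 0.55 at day 7. In the low range of day 7, 13 of the 21 cells had Atf3 at 0, and the others were below the highest control cell. The rho values of that range include these ties and low counts. The low range of day 3 was also below the highest control cell. Differences in sign between low and high ranges are not read as a relation to Atf3, and what lies behind them was not tested. All these rho values describe cells of 1 sample each, which share depth and neuron type.

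**Figure D4:**
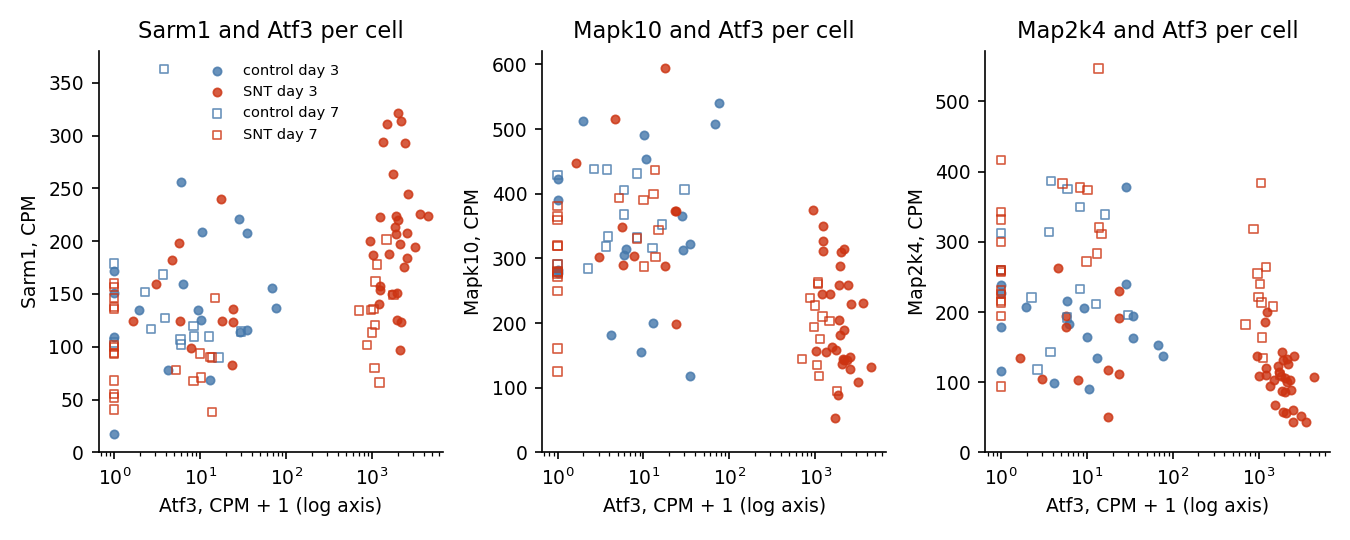
CPM of Sarm1, Mapk10 and Map2k4 against Atf3 (CPM + 1, log axis) in each neuron, in blue for the control and red for the SNT side, with filled circles for day 3 and open squares for day 7. SNT-side cells lie on both sides of a gap in Atf3 that runs from 23.04 to 951 CPM at day 3 and from 13.9 to 704 CPM at day 7.

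The genes whose levels followed the members most closely were sought over the 59 day-3 cells of both sides among 9277 genes. With a limit of 0.7 on Spearman's rho, 3 members had such genes. Map2k4 went with Kcns1 (0.73), a potassium channel subunit gene, and Trnp1 (0.73). Mapk9 went with Atp6v1g2 (0.78), Ckmt1 (0.77) and Dlg2 (0.77). Mapk10 went with Nrg1 (0.79), the neuregulin gene, Vps41 (0.77) and Epb4.1l3 (0.77). The points share side, neuron type and depth, and the other 7 members had none.

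In the cells 26 JNK pathway neighbours could be compared at each day. Past 2-fold were 1 higher and 2 lower at day 3 and 2 higher and 0 lower at day 7. These counts are near the shares of all genes past 2-fold, 10.5% at day 3 and 6.41% at day 7. The lower genes were Map3k9 and Map3k5, upstream kinases named after their values were seen, at 44.98 against 100.2 CPM and 7.264 against 20.4 CPM. Tnik was the gene higher at both days, at 169 against 42.4 CPM at day 3 and 193 against 44.4 CPM at day 7. Map4k4 was at 29.6 against 24.9 CPM and at 53.1 against 25.7 CPM. Of 14 axon degeneration and NAD genes at each day, 2 were past 2-fold, both higher at both days. Of all genes, 5.05% were higher past 2-fold at day 3 and 3.7% at day 7. Stmn4 was at 139 against 5.54 CPM at day 3 and 52.2 against 2.66 CPM at day 7.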

How the data were processed

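Neurons were picked singly or pooled from dissociated DRGs, and cDNA was made by Smart-seq2, which carries no molecular identifiers. The authors aligned reads with Bowtie2 to mm9, estimated expression with RSEM on RefSeq exons, left ribosomal RNA out and removed 11 of 117 cells as outliers. The authors named the deposited tables TPM, but the values are expected counts: totals run from 223967 to 2003817, and 60.7% to 93.6% of values above 0 in a library are whole (tolerance 1e-09). Counts were therefore used, as CPM for single cells.

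Pool counts were rounded and fitted with edgeR 4.0.16 in R 4.3.3 (quasi-likelihood test, TMM factors, mean of at least 1 CPM, prior count 0.125, Benjamini-Hochberg over all genes tested), a script tested on simulated data. Pool libraries of a side differed by 2.59 to 4.20 chi-square units per gene, beyond sampling noise, and were kept as 3. Ratios within libraries were compared by exact permutation. The labels name no animal, so cells of a side and day are 1 sample, described by the mean, SD and log2 ratio of mean CPM + 1, with scipy 1.17.1. Exact 95% intervals are Clopper-Pearson. Titles and the paper put cells at day 7 where a protocol label names both days. No doublet caller was run on the hand-picked cells.

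The members and lists were chosen with earlier results of these data known. Named genes were all members, listed neighbours called in the pools with a log2 change beyond 1, and up to 3 genes per member with the highest Spearman correlation of at least 0.7 over day-3 cells, and 2 genes that this rule names are not reported here. Positions are from GENCODE M21 and RefSeq. Alternatives were other scalings, filters, pseudocounts, DESeq2 1.42.0, limma 3.58.1, a replicate block and each library left out.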

Additional observations from a re-analysis of the deposited data

Results flagged for a closer look

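Among the 7 female and 7 male control-side cells of day 7, each member was searched for a cell far from the others, in 20 groups of 7 cells. Sarm1 had such a cell in both sexes. In female cells the highest was at 178.9 CPM and the next at 127.5 CPM, and in male cells the highest was at 363 CPM and the next at 168.5 CPM. Chance gives about 1 such flag in 20 groups. Both cells raise the control mean that the day-7 Sarm1 ratio is set against.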

How the results depend on the processing

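In the pools Sarm1 and Mapk8ip3 were called under all 14 alternatives, with log2 changes of 1.16 to 1.41 and 0.62 to 0.85. Genes called numbered 3348, and 2639 (DESeq2) to 3513 (library totals alone) under the alternatives, with 2736 to 3271 when 1 library was left out. Among members not called, signs turned when 1 library was left out, over a range of -0.12 to 0.19 for Map3k12, -0.37 to 0.02 for Map3k13, -0.41 to 0.04 for Map2k7, -0.16 to 0.09 for Mapk8, -0.20 to 0.03 for Mapk10 and -0.13 to 0.09 for Nmnat2. The log2 ratio of Map3k12 to Map3k13 ranged from -0.03 to 0.53. With library totals alone Map3k12 was at -0.11. The cause was not tested. Library numbers did not pair the sides (correlation of deviations 0.059, -0.016 and -0.007), and a replicate block gave 3255 genes and 2 members called. In cells, genes past 2-fold numbered 974 at day 3, 602 with a pseudocount of 10 CPM and 1791 with a filter of 1 CPM. At day 7 they numbered 589, and 959 from medians, 333 with a pseudocount of 10 CPM, 1276 with a filter of 1 CPM and 1040 in female cells. No member passed 2-fold in any of these. Signs turned at day 3 for Map2k7 in 3 of 8 alternatives and for Map3k13 and Mapk8 in 1, and at day 7 for Mapk8ip3 in 3 of 9 and for Map2k4, Map3k13 and Nmnat2 in 1. No cell was an outlier at day 7, so the table of all cells gives no other value there. The number of cells of 1 unnamed set of mice and the split of 1 pool per side limit every comparison, and depth limits Map3k13.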
